A study of Homo sapiens with 18 samples.

Results

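The 38 genes described here encode the enzymes and transporters of glycolysis and the best-known targets and parts of the hypoxia response. They were chosen by symbol from pathway knowledge, with earlier results of these data known. All 38 were found among the 26485 genes listed in each of the 2 deposited tables. RNA was sequenced from PANC-1, an established epithelial line from a human pancreatic ductal carcinoma, to ask which transcripts follow PKR, the RNA-activated kinase encoded by EIF2AK2. In the libraries labeled Run1, cells had been transfected either with a control siRNA or with 1 of 2 siRNAs against PKR (PKR siRNA 1, PKR siRNA 2). In those labeled Run2 they had received the solvent DMSO or the PKR inhibitor C16 at 400 nM or 800 nM. The labels do not say what a run was. RNA was taken after 72 h in all 6 groups, with 3 libraries each. All groups are the same single cell line, and nothing in the sources says that the 3 libraries of a group came from separate cultures, so p-values measure the spread between these libraries, which may be technical. The siRNA and C16 libraries came from different runs and were normalized in separate tables. Differences between the siRNA and the C16 results therefore cannot be told apart from effects of the run. Each control shared the run of its treatments, and tests stayed within a table.

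Glycolysis turns glucose into pyruvate and lactate. Hypoxia-inducible factors (HIF), pairs of an oxygen-regulated alpha subunit (HIF1A or EPAS1) and the stable partner ARNT, bind an RCGTG core near the start of many glycolytic genes and raise their transcription when oxygen is low, while prolyl hydroxylases of the EGLN family mark the alpha subunits for destruction when it is not. Pancreatic ductal carcinomas are poorly perfused and are known for high glycolytic and hypoxia-target expression.

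Promoter sequence from RefSeq (GRCh38.p14), 250 bases before to 50 bases after each start, was matched for 33 of the 38 genes. The core ACGTG, sought on both strands so that CACGT is the same site read backwards and CACGTG counts as 1 site, was present in 13 of these 33 promoters (39.4%) and in 21.4% of all 35116 promoters. The other form of the core, GCGTG, was present in 15 of the 33 (45.5%) and in 36.5% of all promoters; the 2 forms differ in their first base, and an ACGTG match can share only its last base with a GCGTG match, on the same strand. HK2 and SLC16A3 are shown because they moved far in opposite directions with 800 nM C16, and LDHA and PGK1 because they are classical HIF targets; all 4 were chosen after their values were seen. HK2 held 2 ACGTG sites, LDHA 3, PGK1 3 and SLC16A3 0 in the whole window. Capitals mark ACGTG on either strand, and each sequence is given 5′ to 3′ on the plus strand, on which these genes lie.
HK2, chr2:74833886-74833915: agccacggaccaCACGTcccatctcaggcg
HK2, chr2:74834067-74834096: aatgggcgtgcgCACGTcactgatccggag
LDHA, chr11:18394366-18394395: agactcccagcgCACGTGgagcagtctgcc
LDHA, chr11:18394471-18394500: actcaCACGTGggttcccgCACGTccgccg
PGK1, chrX:78103998-78104168: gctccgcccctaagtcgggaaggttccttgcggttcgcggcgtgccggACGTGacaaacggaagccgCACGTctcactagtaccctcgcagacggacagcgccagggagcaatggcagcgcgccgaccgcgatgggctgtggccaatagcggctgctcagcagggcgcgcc
SLC16A3, chr17:82228185-82228405: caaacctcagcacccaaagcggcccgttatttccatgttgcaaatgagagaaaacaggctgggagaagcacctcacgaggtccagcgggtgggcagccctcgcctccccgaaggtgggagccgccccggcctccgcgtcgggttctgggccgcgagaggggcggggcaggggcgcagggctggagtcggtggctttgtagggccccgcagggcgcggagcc
The PGK1 and SLC16A3 stretches end where the first exon of the deposited table begins. These matches describe letters in a window and do not show that a factor was bound there.

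Reads on genes numbered 1512940 to 1873906 per library after siRNA and 894145 to 1474308 after DMSO or C16, and the 38 genes took 1.35% to 1.64% of the normalized counts of a library. At this depth 33 of the 38 reached the minimum mean of 10 normalized counts in each table and were tested. EIF2AK2 itself averaged 97.4 ± 5.21 normalized counts in control cells against 11.1 ± 2.19 after siRNA 1 and 8.65 ± 0.726 after siRNA 2 (SD, n = 3 each). C16 inhibits the kinase itself, and the EIF2AK2 transcript stood at 49.8 ± 4.20 with DMSO, 42.5 ± 3.26 with 400 nM and 49.9 ± 1.38 with 800 nM (SD, n = 3 each). Of 6 epithelial markers, KRT8, KRT18 and KRT19 had 519 or more normalized counts in every library, while KRT7, CDH1 and EPCAM had 0.761 to 120. The summed epithelial markers ran from 5358 to 5451 in controls, 3052 to 3280 after siRNA 1 and 9586 to 10233 after siRNA 2, and from 7171 to 7572 with DMSO, 6033 to 6544 with 400 nM and 5172 to 5685 with 800 nM C16. Of 15 markers of blood, endothelial, fibroblast, acinar and endocrine cells, 14 stayed under 10 normalized counts in every library of either table. The other one, the collagen gene COL1A1, carried most of their sum, which was 85.2 to 111 in controls, 28.1 to 35.5 after siRNA 1, 111 to 119 after siRNA 2, 135 to 165 with DMSO, 105 to 161 with 400 nM and 60.1 to 95.8 with 800 nM C16. The part of these shifts in the results below was not tested.

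Levels of different genes are compared here as normalized counts per kilobase of exon. In the control siRNA libraries the later steps of glycolysis dominated, with means per kilobase of 1646 for GAPDH, 1313 for the pyruvate kinase PKM and 1256 for the enolase ENO1. Aldolase A (ALDOA, 704), lactate dehydrogenase A (LDHA, 679), PGAM1 (615), LDHB (507) and TPI1 (500) followed in the same unit. The lowest tested genes were the hexokinase HK2 at 3.72, the pyruvate dehydrogenase kinase PDK1 at 4.34 and NDRG1 at 4.4. The order was much the same with DMSO, where GAPDH stood at 1477, ENO1 at 1031 and PKM at 719 per kilobase, and HK2 was again lowest at 0.974. Within most families 1 member dominated per kilobase. HK1 exceeded HK2 (88.5 against 3.72 with control siRNA), the platelet-type phosphofructokinase PFKP exceeded PFKM and PFKL (288, 43.8 and 35.4), and ENO1 exceeded the neuronal enolase ENO2 (1256 against 44.6). The lactate exporter SLC16A3 (MCT4) stood at 217 and SLC16A1 (MCT1) at 13.9. Among the HIF subunits the mean per kilobase was 57.7 for EPAS1, 36.2 for HIF1A and 23.9 for ARNT. The level of GPI (129) is understated, since its listed length includes 10 exons on another scaffold. Exon bases opposite another gene made up 7.21% of P4HA2, 3.87% of ENO1 and 3.49% of SLC2A1, and GENCODE names 44 pseudogenes after BNIP3, 13 after PGAM1 and 6 after LDHA, so their reads could be split.

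**Figure D1:**
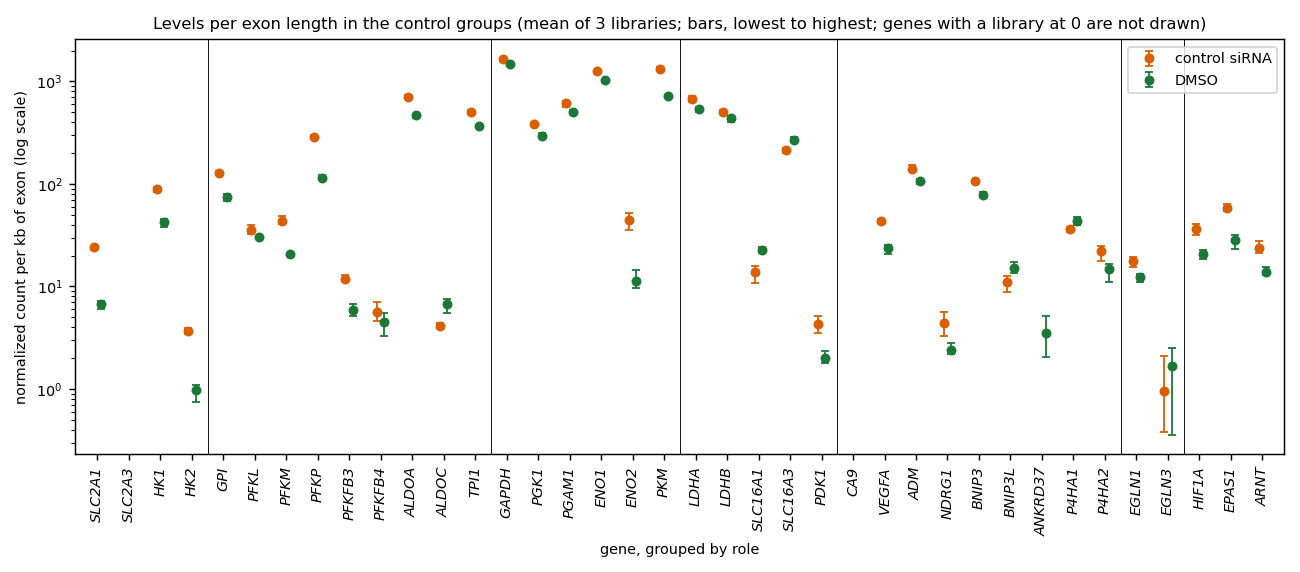
Normalized counts per kilobase of exon on a log scale for each gene, grouped by role, in the control siRNA (orange) and DMSO (green) libraries; points are means of 3 libraries, bars run from the lowest to the highest library, and genes with a library at 0 are left out. GAPDH, PKM and ENO1 stand at 719 or more, and HK2 and PDK1 at 4.34 or less.

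5 genes were too low to test. The neuronal-type glucose transporter SLC2A3 (GLUT3) had 0 to 2 reads in any library. Carbonic anhydrase 9 (CA9), a widely used hypoxia marker, had 0 reads in all 9 siRNA libraries and at most 1 in the C16 libraries. A count of 0 in a single library allows an expected count of up to 3 reads, and less where all 9 are at 0. ALDOC had 3 to 17 reads, the oxygen sensor EGLN3 1 to 11 and the hypoxia target ANKRD37 0 to 7. No fold change is given for them.

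In the tests below a gene is called when its limma Benjamini-Hochberg adjusted p-value is under 0.05 and its fold change is over 1.5, and fold changes are log2 ratios of normalized count + 1, which understate the change of low genes. PKR siRNA 1 raised 3 of the 33 tested genes and lowered 1, against 8.53% of all tested genes called up and 12.6% called down. PKR siRNA 2 raised 7 and lowered 6 (10.8% and 12.8% of all tested genes). C16 at 400 nM raised 7 and lowered 2 (7.08% and 5.45%), and at 800 nM it raised 8 and lowered 5 (11.6% and 14.1%). Both siRNA contrasts use the same control libraries, and both C16 contrasts the same DMSO libraries, so their values are set side by side and the similarity of their calls is not itself a result. The median log2 fold change of the 33 genes was 0.19 with PKR siRNA 1, 0.01 with PKR siRNA 2, 0.22 with 400 nM and 0.11 with 800 nM C16, where the medians of all tested genes were -0.01, -0.01, 0.00 and 0.00. The treated and control groups did not overlap for 19, 24, 26 and 22 of the 33 genes in these comparisons, and for 51.7%, 54.3%, 39.6% and 51.8% of all genes tested. Each of the 4 treatments had calls in both directions. Where all 3 treated libraries of a gene lay on one side of the 3 controls, its exact two-sided permutation test gave p = 0.1, the smallest that 3 libraries against 3 allow. In bulk RNA, fewer cells with a transcript and less transcript per cell cannot be told apart.

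**Figure D2:**
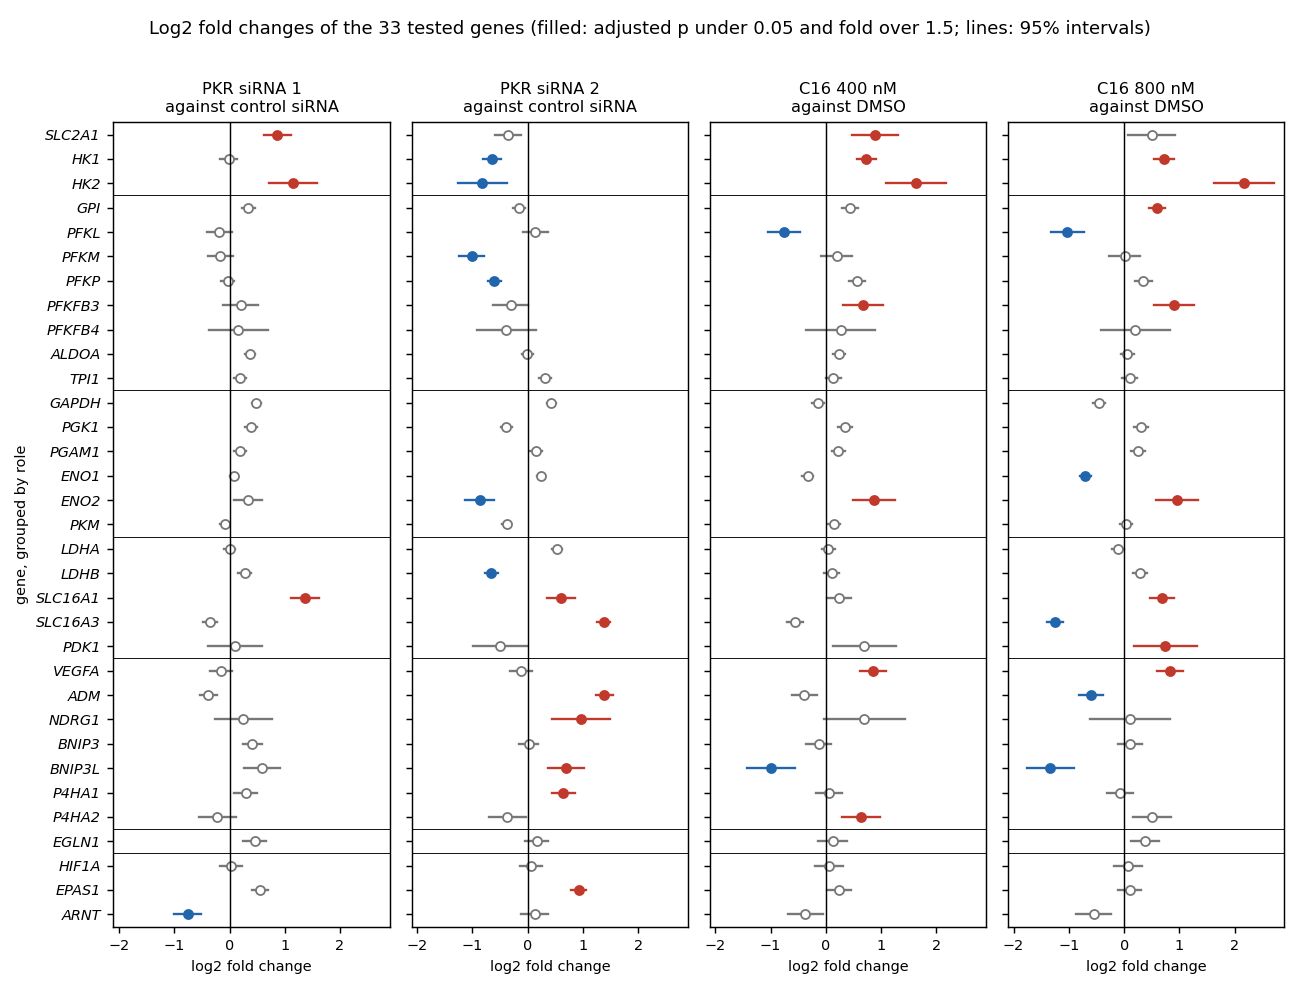
Log2 fold changes of the 33 tested genes, grouped by role, for each treatment against its control; points are limma estimates, lines 95% intervals, and filled points are called up (red) or down (blue). HK2 reached 2.17 with 800 nM C16 and 1.15 with PKR siRNA 1 but -0.82 with PKR siRNA 2.

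Glucose enters through SLC2A1 (GLUT1) and is trapped by the hexokinases HK1 and HK2. With C16 at 400 nM all 3 tested genes of this step were called up, and with 800 nM HK1 and HK2 were, against 7.08% and 11.6% of all tested genes. SLC2A1 (chromosome 1, 42925375 to 42959176, minus strand, hg38) had 91.4, 91.3 and 83.4 normalized counts in control cells, 159, 180 and 151 after siRNA 1, and 66.6, 67.6 and 73.4 after siRNA 2. All siRNA 1 libraries lay above the controls and all siRNA 2 libraries below them. The log2 fold change was 0.87 with siRNA 1 (standard error 0.12, limma Benjamini-Hochberg adjusted p = 3.37e-09) and -0.35 with siRNA 2, which stayed under the 1.5-fold threshold. In the C16 table SLC2A1 had 25.3, 21.9 and 26.7 normalized counts with DMSO, 53.2, 56.5 and 33 with 400 nM and 41.4, 39 and 26.7 with 800 nM. The third library of each dose was the lowest of its group, and at 800 nM it lay just above the highest DMSO library (26.72 against 26.65). With 400 nM the difference was 0.89 on the log2 scale (standard error 0.21, limma Benjamini-Hochberg adjusted p = 0.000882). It was 0.50 at 800 nM, not called, and 0.69 and called without the third 800 nM library.

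HK2, the hexokinase induced in many tumors (chromosome 2, 74832655 to 74893354, plus strand, hg38), had the largest C16 response of the 33 genes. Its normalized counts were 24.6, 27.9 and 26.5 in control cells, 54.4, 69.8 and 56 after siRNA 1 and 11.9, 12.9 and 19.7 after siRNA 2. It had 7.77, 7.62 and 5.33 with DMSO, 21.3, 19.6 and 29.8 with 400 nM and 29.3, 40.2 and 34.4 with 800 nM C16. None of the treated groups overlapped its control. HK2 rose 2.22-fold with PKR siRNA 1, 3.09-fold with 400 nM C16 and 4.52-fold with 800 nM C16, and fell to 0.567 of the control with PKR siRNA 2. On the log2 scale the changes were 1.15, 1.63, 2.17 and -0.82, with standard errors of 0.22 for the siRNAs and 0.27 for C16, and all 4 were called by limma with Benjamini-Hochberg adjustment (adjusted p = 9.71e-06, 3.6e-06, 1.4e-09 and 0.00132). HK1, the constitutive hexokinase, was at log2 fold changes of 0.73 and 0.72 at the C16 doses and -0.65 with siRNA 2, all called, and at -0.02 with siRNA 1.

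The sugar phosphate steps hold the committed step of the pathway, phosphofructokinase, whose 3 subunits moved apart. The liver-type subunit PFKL had 101, 105 and 103 normalized counts with DMSO, 75.5, 49.6 and 58.5 with 400 nM C16, and 46.4, 49.96 and 53.4 with 800 nM. Every C16 library lay below every DMSO library. The log2 fold changes were -0.76 and -1.03 (standard error 0.15 each, limma Benjamini-Hochberg adjusted p = 5.61e-05 and 4.96e-08). In the siRNA table PFKL had 135, 116 and 112 with control siRNA, 92.2, 112 and 114 with siRNA 1 and 121, 134 and 142 with siRNA 2. Each siRNA group overlapped control, but all siRNA 1 libraries lay below those of siRNA 2. The muscle-type subunit PFKM was lowered by PKR siRNA 2. Its counts were 186, 161 and 155 with control siRNA, 143, 153 and 150 with siRNA 1 and 68.6, 98.6 and 81.8 with siRNA 2. All siRNA 2 libraries lay far below the others, with a log2 fold change of -1.01 against control (standard error 0.11, limma Benjamini-Hochberg adjusted p = 2.07e-12). With DMSO PFKM had 80.6, 77.1 and 77.7, with 400 nM 94.7, 89.9 and 85.1 and with 800 nM C16 98.8, 81.6 and 61.1. The 800 nM libraries spread to both sides of DMSO. 6.02% of the PFKM exon bases lie opposite exons of SENP1, and whether counting used strand is not given in the sources used here. PFKP was called down with siRNA 2 (-0.61), a call that ended without the second control library (-0.58), and its log2 fold change was 0.56 with 400 nM C16 and 0.34 with 800 nM, under the fold threshold, although the 400 nM value was 0.60 and called without the third DMSO library.

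PFKFB3 makes fructose 2,6-bisphosphate, the activator of phosphofructokinase. Its normalized counts were 33, 28.6 and 25.1 with DMSO, 47.9, 47.3 and 43.6 with 400 nM and 54.5, 46.3 and 64.9 with 800 nM C16. All C16 libraries lay above DMSO. The log2 fold changes were 0.67 and 0.91 (standard error 0.18 each, limma Benjamini-Hochberg adjusted p = 0.00398 and 4.13e-05). The 400 nM call ended without the third DMSO library (0.57) and with DESeq2 (adjusted p = 0.0520). In the siRNA table PFKFB3 had 63.7, 55.9 and 55 with control siRNA, 61.1, 62.6 and 78.2 with siRNA 1 and 48.7, 39.7 and 52.7 with siRNA 2, and neither contrast was called. Its relative PFKFB4 had means between 14.7 and 21.8 normalized counts and was called in no comparison. GPI, which interconverts glucose and fructose phosphates, was called up at 800 nM (0.60), a call that ended without the second DMSO library (0.55) or the third 800 nM library (0.56). ALDOA and TPI1, the aldolase and triose isomerase steps, had log2 fold changes between -0.01 and 0.36 against their controls and were not called.

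From triose phosphate to pyruvate, ENO1 at 800 nM C16 and ENO2 in 3 comparisons with a control were called, and the other genes of these steps in none. GAPDH, the reference gene of the study's RT-PCR, had 3122, 3189 and 3031 normalized counts in control cells, 4263, 4549 and 4288 after siRNA 1 and 4067, 4050 and 4477 after siRNA 2. In the C16 table it had 2924, 2786 and 2673 with DMSO, 2586, 2582 and 2427 with 400 nM and 1993, 2133 and 1965 with 800 nM. No treated group overlapped its control, and both siRNA groups stood above control where both C16 groups stood below DMSO. The log2 fold changes were 0.49 and 0.43 for the siRNAs (standard error 0.04 each, limma Benjamini-Hochberg adjusted p = 6.22e-18 and 1.52e-15). They were -0.14 and -0.46 for C16 (standard error 0.05 each, limma Benjamini-Hochberg adjusted p = 0.0375 and 1.01e-10), all under 1.5-fold and of the same sign under each scaling tried. GENCODE lists 65 pseudogenes named after GAPDH, whose reads could be split. ENO1, the most abundant enolase, had a mean of 3354 ± 122 with DMSO, 2669 ± 66.6 with 400 nM and 2063 ± 73.9 with 800 nM C16 (SD, n = 3 each), and was called down at 800 nM (-0.70). ENO2 went the other way. It had 23.3, 35.2 and 24.4 with DMSO, 57.4, 38.1 and 58.5 with 400 nM and 59.5, 56.1 and 45.8 with 800 nM C16, with no overlap. The log2 fold changes were 0.87 and 0.95 (standard error 0.19 each, limma Benjamini-Hochberg adjusted p = 0.000353 and 4.16e-05).

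In the siRNA table ENO2 had 110, 87 and 127 with control siRNA, 120, 135 and 151 with siRNA 1 and 62.7, 63.3 and 48.9 with siRNA 2. The siRNA 1 and control libraries overlapped and the siRNA 2 libraries lay below both, at a log2 fold change of -0.87 against control (standard error 0.13, limma Benjamini-Hochberg adjusted p = 3.24e-08). PGK1, which yields the first ATP of the pathway, had means of 939 ± 14 with control siRNA, 1227 ± 43.7 with siRNA 1 and 718 ± 27.8 with siRNA 2 (SD, n = 3 each). Its log2 fold changes of 0.39 and -0.39 were under the fold threshold. PGAM1 and PKM had log2 fold changes between -0.38 and 0.25 against their controls and were not called.

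Pyruvate is reduced to lactate by the LDH enzymes, leaves the cell through the monocarboxylate transporters, or is kept from the mitochondria when PDK1 inhibits pyruvate dehydrogenase. SLC16A3, the hypoxia-induced lactate exporter (chromosome 17, 82228406 to 82239499, plus strand, hg38), had 497, 560 and 556 normalized counts in control cells, 418, 470 and 378 after siRNA 1 and 1398, 1370 and 1403 after siRNA 2. It had 656, 651 and 707 with DMSO, 462, 473 and 431 with 400 nM and 289, 273 and 284 with 800 nM C16. No group overlapped another within its table. SLC16A3 rose 2.59-fold with siRNA 2 (log2 fold change 1.37, standard error 0.06, limma Benjamini-Hochberg adjusted p = 2.52e-32). It fell to 0.421 of DMSO at 800 nM C16 (log2 fold change -1.25, standard error 0.07, limma Benjamini-Hochberg adjusted p = 8.07e-22). It stood at -0.35 with siRNA 1 and -0.56 at 400 nM, under the fold threshold, although the 400 nM value was -0.59 and called without the second 400 nM library.

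SLC16A1, the broadly expressed transporter of the pair (chromosome 1, 112911848 to 112956353, minus strand, hg38), had 69.8, 74.1 and 50.2 with control siRNA, 166, 151 and 183 with siRNA 1 and 112, 92.2 and 88.4 with siRNA 2. In the C16 table it had 113, 109 and 99 with DMSO, 123, 122 and 133 with 400 nM and 166, 178 and 171 with 800 nM. Every treated library lay above every control. Log2 fold changes were 1.36 with siRNA 1 (standard error 0.13, limma Benjamini-Hochberg adjusted p = 2.18e-15), 0.60 with siRNA 2 and 0.68 with 800 nM C16, all called, and 0.24 at 400 nM, not called. The siRNA 2 call lay at the threshold and ended without the third control library (0.43), without the first siRNA 2 library (0.49) or with a pseudocount of 5 (0.57). The study had listed SLC16A1 as upregulated on these same libraries, so its rise in all of these is not independent evidence.

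LDHA, which reduces pyruvate to lactate, had 1827, 1601 and 1772 with control siRNA, 1735, 1692 and 1767 with siRNA 1 and 2526, 2408 and 2535 with siRNA 2. It had 1424, 1387 and 1283 with DMSO, 1477, 1363 and 1376 with 400 nM and 1248, 1283 and 1252 with 800 nM C16. Only the siRNA 2 libraries stood clear of their controls. The siRNA 2 difference of 0.52 (standard error 0.05, limma Benjamini-Hochberg adjusted p = 1.2e-16) was under 1.5-fold, and at 800 nM, where the groups overlapped, the difference was -0.11 (95% interval -0.23 to 0.00). LDHB, the form that favors pyruvate, fell from 811 ± 28.04 to 513 ± 7.38 with siRNA 2 (SD, n = 3 each; log2 fold change -0.66, called). PDK1 had 29.8, 20.4 and 25.6 with control siRNA, 26.7, 19.95 and 36.7 with siRNA 1 and 15.9, 18.2 and 17.9 with siRNA 2. It had 13.6, 10.5 and 10.7 with DMSO, 23.4, 15 and 20.2 with 400 nM and 17.1, 26.8 and 17.2 with 800 nM C16. All C16 libraries lay above DMSO, and of the contrasts with a control only that of 800 nM was called (0.74, standard error 0.28, limma Benjamini-Hochberg adjusted p = 0.0279). That call ended without the second (0.68) or the third (0.69) DMSO library, without the second 800 nM library (0.54), with no filter on low values and with DESeq2. At 400 nM the value was 0.69, and it was called with edgeR (0.76) or without the second 400 nM library (0.86). With siRNA 2 it was called without the second control library (-0.64).

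**Figure D3:**
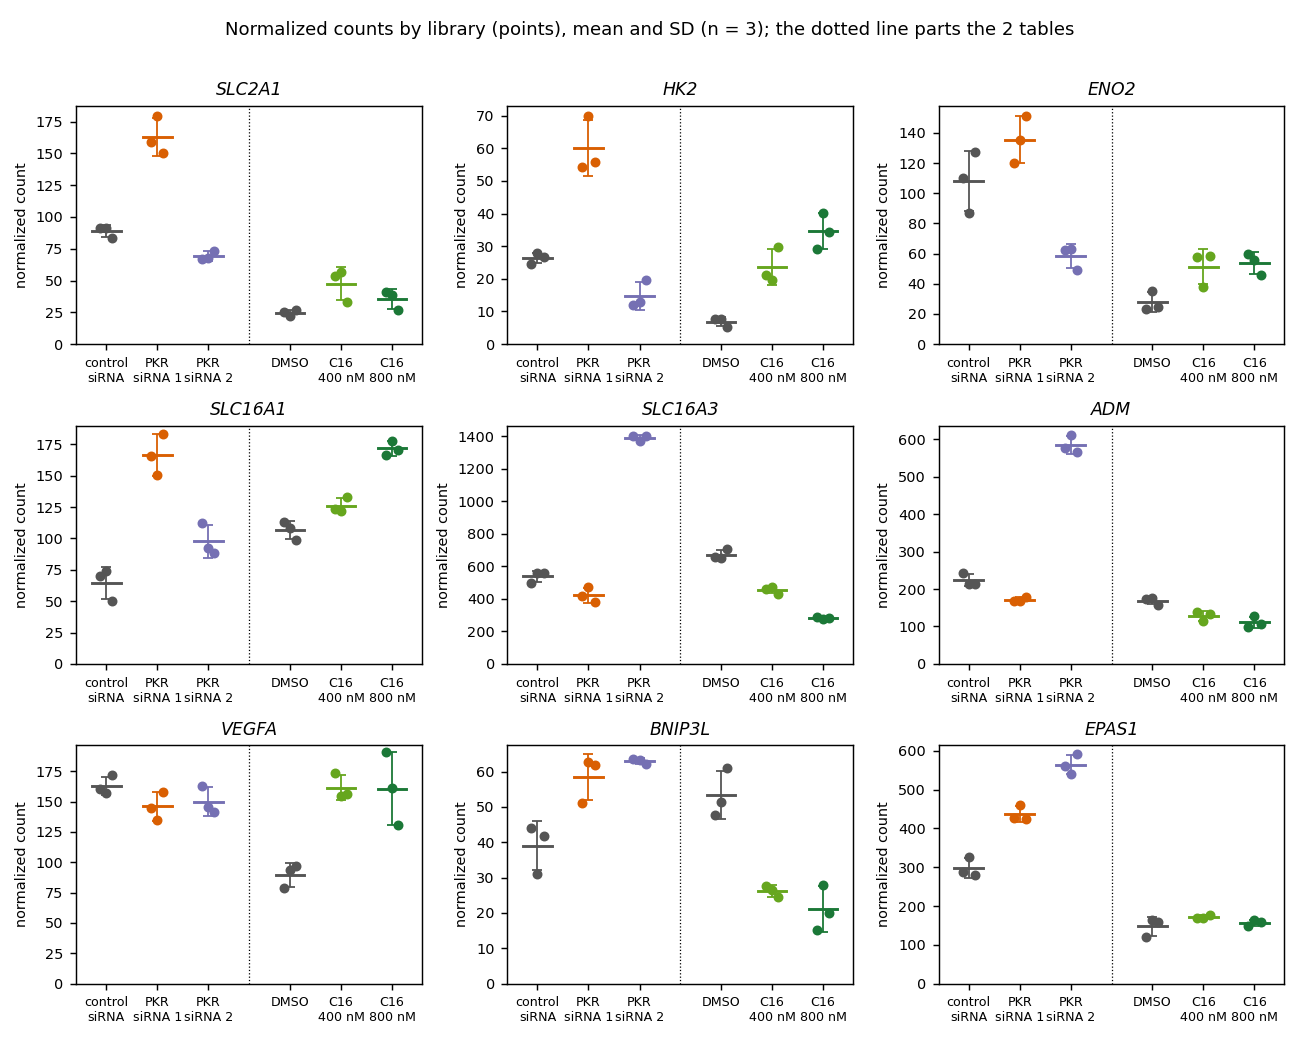
Normalized counts in each library (points) with the group mean and SD (n = 3) for 9 of the genes; the dotted line parts the separately normalized siRNA and C16 tables. SLC16A3 and ADM stood above control with PKR siRNA 2 and below DMSO with 800 nM C16, while HK2, SLC2A1 and ENO2 stood lower with PKR siRNA 2 than with PKR siRNA 1.

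The HIF targets outside glycolysis act in vessel growth, mitophagy and collagen folding. VEGFA, the main vascular growth factor (chromosome 6, 43770209 to 43786486, plus strand, hg38), had 78.7, 93.3 and 96.7 with DMSO, 173, 155 and 156 with 400 nM and 191, 161 and 131 with 800 nM C16. All C16 libraries lay above DMSO, at log2 fold changes of 0.85 and 0.83 (standard error 0.12 each, limma Benjamini-Hochberg adjusted p = 4.79e-08 and 3.28e-08). With the siRNAs it had 160, 157 and 172 in control, 144, 135 and 158 with siRNA 1 and 163, 146 and 141 with siRNA 2, with overlap and no call. ADM, the vasodilator peptide adrenomedullin (chromosome 11, 10304980 to 10307402, plus strand, hg38), had 242, 214 and 214 with control siRNA, 168, 167 and 179 with siRNA 1 and 576, 611 and 567 with siRNA 2. The siRNA 1 libraries lay below and the siRNA 2 libraries far above control. ADM rose 2.61-fold with siRNA 2 (log2 fold change 1.39, standard error 0.08, limma Benjamini-Hochberg adjusted p = 1.51e-26) and was at -0.38 with siRNA 1, under the fold threshold. It had 173, 176 and 158 with DMSO, 139, 114 and 133 with 400 nM and 98.8, 128 and 108 with 800 nM C16, without overlap with DMSO. Its fall at 800 nM (-0.60, standard error 0.11) was at the threshold: the call ended without the first or the second DMSO library, the first or the third 800 nM library (-0.58 to -0.52), with a pseudocount of 5 or with scaling by library total.

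BNIP3L (NIX), a receptor for the removal of mitochondria, had 44.2, 31.2 and 41.7 with control siRNA, 51.1, 62.6 and 61.8 with siRNA 1 and 63.7, 63.3 and 62.1 with siRNA 2. It had 47.6, 51.4 and 60.9 with DMSO, 27.7, 26.5 and 24.5 with 400 nM and 15.1, 28 and 20.04 with 800 nM C16. The siRNA libraries stood above their control and the C16 libraries below theirs. BNIP3L fell with 400 nM and 800 nM C16 (-0.99 and -1.33, standard error 0.22 each, limma Benjamini-Hochberg adjusted p = 0.000301 and 7.45e-07). The log2 fold change was 0.69 with siRNA 2, called, but 0.54 without the second control library. With siRNA 1 it was 0.58, not called, just under the fold threshold. It was called there in 8 alternatives: without the first or the third control library or the first siRNA 1 library (0.64 to 0.68), with a pseudocount of 0.5 (0.59), both other scalings (0.59 and 0.61), and edgeR and DESeq2 (0.60 each). Its homolog BNIP3 had log2 fold changes between -0.13 and 0.41 against its controls and was called in none. NDRG1, a stress-induced gene, rose from 15.3 ± 4.07 to 30.6 ± 6.94 normalized counts with siRNA 2 (SD, n = 3 each). P4HA1 and P4HA2, the catalytic subunits of collagen prolyl hydroxylase, differed: P4HA1 was called up with siRNA 2 (0.65) and P4HA2 with 400 nM C16 (0.63), the latter not without the third DMSO library (0.44) or the first 400 nM library (0.55) or with a pseudocount of 5 (0.58). At 800 nM P4HA2 was called without the first or the second DMSO library (0.60 each). The oxygen sensor EGLN1 had log2 fold changes of 0.12 to 0.45 against its controls and was not called.

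The transcript of HIF1A, the alpha subunit that drives most glycolytic targets, did not separate by treatment. It had 180, 158 and 140 with control siRNA, 164, 155 and 166 with siRNA 1, 154, 178 and 163 with siRNA 2, 81.6, 100 and 93.7 with DMSO, 83, 98 and 107 with 400 nM and 99.9, 90.2 and 99.2 with 800 nM C16. The groups overlapped in both tables. Log2 fold changes were 0.03, 0.05, 0.06 and 0.07 with 95% intervals within -0.19 to 0.33. 30.4% of its exon bases lie opposite the antisense genes HIF1A-AS1 and HIF1A-AS2, so its reads are uncertain if counting ignored strand. The level of the HIF1A protein, which oxygen regulates through the EGLN enzymes, was not measured. EPAS1 (HIF-2 alpha; chromosome 2, 46297402 to 46386703, plus strand, hg38) had 288, 327 and 281 with control siRNA, 427, 460 and 426 with siRNA 1 and 560, 541 and 591 with siRNA 2. The 3 groups did not overlap. EPAS1 rose 1.89-fold with siRNA 2 (log2 fold change 0.92, standard error 0.07, limma Benjamini-Hochberg adjusted p = 1.05e-19), and its value with siRNA 1, 0.55, was under the fold threshold but 0.62 and called without the second control library. With DMSO it had 120, 163 and 160, with 400 nM 170, 170 and 177 and with 800 nM C16 148, 163 and 158, and neither dose was called. ARNT, the shared partner, had 104, 138 and 114 with control siRNA, 57.8, 68 and 83.9 with siRNA 1 and 134, 125 and 125 with siRNA 2. Only siRNA 1 stood apart, at a log2 fold change of -0.76 (standard error 0.12, limma Benjamini-Hochberg adjusted p = 4.13e-07). ARNT had 64.1, 76.2 and 66.2 with DMSO, 52.1, 56.5 and 50.002 with 400 nM and 43.4, 45.1 and 51.5 with 800 nM C16, all C16 libraries below DMSO. At 800 nM its value was -0.55, under the fold threshold, and it was called without the first DMSO library (-0.60) or the third 800 nM library (-0.62).

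The siRNAs were then compared directly, since both lowered EIF2AK2. With PKR siRNA 2, 4 of the 33 genes were called higher than with PKR siRNA 1 and 9 lower, against 16.4% and 15.3% of all tested genes. The groups did not overlap for 27 of the 33 (60.6% of all genes), with siRNA 2 higher for 10 and lower for 17. For 7 of the called genes the siRNAs also had opposite signs against control, each with a limma Benjamini-Hochberg adjusted p under 0.05, as did 7.79% of all tested genes. Of these 7, only HK2 was called against control with both siRNAs. The 4 genes called higher were ADM (1.77), SLC16A3 (1.72), ARNT (0.88) and NDRG1 (0.71). The largest of the 9 lower values were those of HK2 (-1.97, standard error 0.22, limma Benjamini-Hochberg adjusted p = 1.87e-12), SLC2A1 (-1.22) and ENO2 (-1.21). All 3 tested genes of glucose uptake and phosphorylation were lower with siRNA 2, with a median log2 difference of -1.22. The difference was 0.03 for HIF1A (95% interval -0.17 to 0.22) and -0.06 for GAPDH (-0.14 to 0.02). The NDRG1 call ended without the third siRNA 1 (0.56) or second siRNA 2 library (0.54) and with DESeq2 (adjusted p = 0.0576), and HK1 was called at -0.63 but not without the second library of siRNA 1 (-0.57) or of siRNA 2 (-0.58). PDK1 was called at -0.61 but not without the first (-0.62) or the third (-0.39) siRNA 1 library or the first siRNA 2 library (-0.55), with a pseudocount of 5 (-0.52), with no filter on low values or with DESeq2. PFKP, at -0.58, was called without the first siRNA 1 (-0.62) or first siRNA 2 library (-0.60) or with scaling by library total (-0.61), and PFKFB3, at -0.51, without the third siRNA 2 library (-0.59).

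Between the C16 doses 1 of the 33 genes was called lower at 800 nM and 0 higher, against 3.95% and 1.13% of all tested genes. That gene was SLC16A3 (-0.69, standard error 0.07, limma Benjamini-Hochberg adjusted p = 1.48e-10). 5 more had an adjusted p under 0.05 with a fold under 1.5: ENO1 (-0.37), GAPDH (-0.32), PFKP (-0.22), ALDOA (-0.18) and SLC16A1 (0.44). For HK2 the difference between doses was 0.55, with a 95% interval of 0.00 to 1.09, and for VEGFA it was -0.02 (-0.25 to 0.21). The groups did not overlap for 11 of the 33 genes (30.4% of all tested genes).

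Related genes were also compared by their ratio within a library, taken on normalized count + 1, so the library's scaling factor cancels almost but not fully and shifts of low genes such as HK2 are understated. For 3 libraries against 3 the exact two-sided permutation test cannot go below p = 0.1, so none of the 15 tests could pass 0.05, and the smallest Benjamini-Hochberg adjusted value was 0.125. The log2 ratio of SLC16A3 to SLC16A1 was 3.05 ± 0.34 in controls, 1.34 ± 0.297 after siRNA 1 and 3.83 ± 0.18 after siRNA 2, and went from 2.64 ± 0.159 with DMSO to 0.71 ± 0.0915 with 800 nM C16 (SD, n = 3 each). The groups did not overlap in any of these comparisons. HK2 to HK1 moved from -3.80 with control siRNA to -2.63 with siRNA 1 and -3.97 with siRNA 2, the last overlapping control, and from -4.55 with DMSO to -3.10 with 800 nM C16. LDHA to LDHB was 1.09 with control siRNA, 0.82 with siRNA 1 and 2.28 with siRNA 2, and 0.95 with DMSO and 0.55 with 800 nM C16, without overlap. P4HA2 to P4HA1 differed from control by -0.51 with siRNA 1, where the groups overlapped, by -1.01 with siRNA 2 and by 0.58 with 800 nM C16. EPAS1 to HIF1A differed by 0.52 and 0.86 with the siRNAs, without overlap, and by 0.03 with 800 nM C16.

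**Figure D4:**
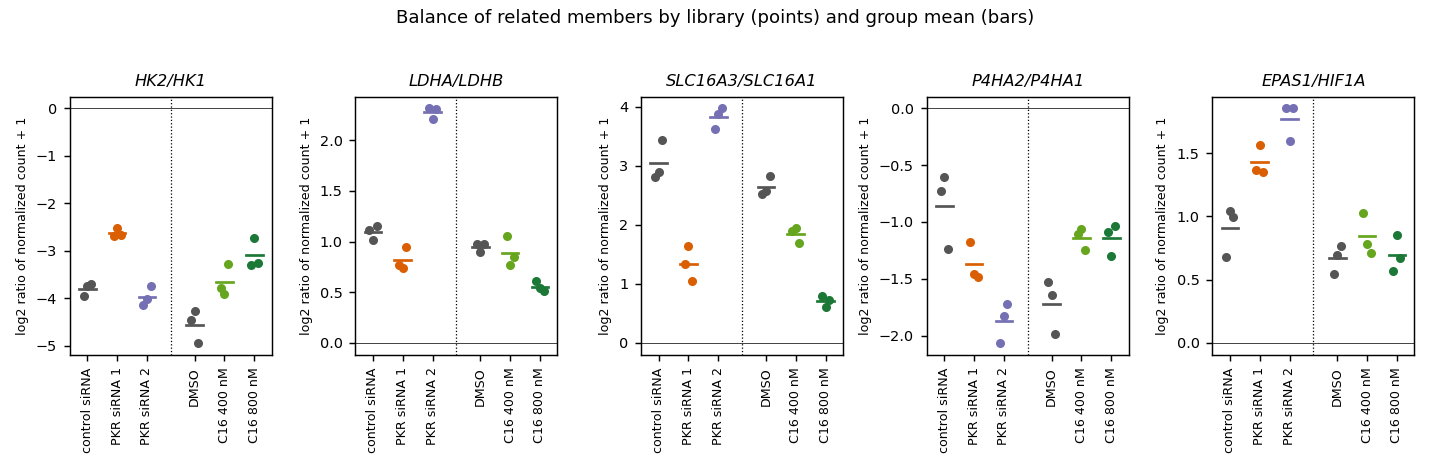
Log2 ratio of normalized count + 1 of 5 pairs of related genes in each library (points), with the group mean as a bar; the dotted line parts the siRNA and C16 tables. SLC16A3/SLC16A1 was lowest with PKR siRNA 1 in the siRNA table (mean 1.34) and with 800 nM in the C16 table (0.71), and LDHA/LDHB was highest with PKR siRNA 2 (2.28).

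Further genes of the same pathways came from lists described by counts, with medians given for the first list and a few called genes named. Among 19 tested genes of glycolysis side branches and pyruvate oxidation, 1 was called up and 4 down with PKR siRNA 1, 2 up and 3 down with PKR siRNA 2, 1 up and 1 down with 400 nM C16 and 4 up and 2 down with 800 nM, with medians of -0.16, 0.10, 0.04 and 0.23. Of all tested genes, 8.53% were called up and 12.6% down with siRNA 1, 10.8% and 12.8% with siRNA 2, 7.08% and 5.45% with 400 nM and 11.6% and 14.1% with 800 nM, which also stand beside the counts of the lists that follow. PDHX, a structural part of pyruvate dehydrogenase, was at -1.49 with siRNA 1, and PDP2, which activates that complex, at -1.04 and -0.89 with the siRNAs. GPD2 was at -0.83 with siRNA 2. PFKFB2, a relative of PFKFB3, was at -0.92, -0.80 and 1.13 with siRNA 1, siRNA 2 and 800 nM C16, and with 800 nM C16 PDHB stood at -0.97 and DLAT at 0.75. Of 8 pentose phosphate genes, 2 were called up with each siRNA and 2 down with each C16 dose. They included RPIA (0.76 and 0.81 with the siRNAs), TALDO1 (0.69 with siRNA 1) and H6PD (0.67 with siRNA 2 and -1.34 with 800 nM C16).

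Other hypoxia targets also went both ways. Of 27 tested in the siRNA table, 2 were called up and 3 down with PKR siRNA 1 and 6 up and 5 down with PKR siRNA 2, and of 26 tested in the C16 libraries, 7 were called up and 2 down with 400 nM and 6 up and 4 down with 800 nM. DDIT4, an inhibitor of mTOR signaling, was at 0.80 and 1.82 with the siRNAs. PLOD2, a collagen lysyl hydroxylase, was at 1.49 and ERO1A, the oxidase of the endoplasmic reticulum, at -2.30 with siRNA 2. The transferrin receptor TFRC was at -1.19 with siRNA 1, and ANGPTL4 was at -0.73 with siRNA 1 and -1.08 with siRNA 2. With 800 nM C16 STC2 stood at 1.41, AK4 at 1.23 and the histone demethylase KDM4B at -1.41. Among 13 tested regulators of HIF, 1 was called up and 1 down with each siRNA and with 800 nM C16, and 0 up and 1 down with 400 nM. CITED2, which competes with HIF for its coactivator, was at 1.45 with siRNA 2 and -1.33 with 800 nM C16, both called. With siRNA 1 the called regulators were TCEB1 (-0.92) and SIAH2 (0.73).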

How the data were processed

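RNA of PANC-1 cells was sequenced from poly(A) directional libraries as 75 bp pairs. The authors aligned the reads to hg38 (TopHat), counted them per gene (featureCounts) and applied TMM normalization (TCC); the deposited values are this normalized signal per gene, a read count divided by a factor per library. Annotation, strand setting and versions are not given in the sources used here. In every library 100% of values were whole multiples of 1 read (tolerance 0.01), so reads could be recovered. For PKR siRNA 2 library 1 and 800 nM C16 library 1 this step is close to 1, so low values there are hard to tell from whole numbers. High values are not whole numbers, such as 2278.78 and 1590.64 for ALDOA in these libraries. 0 columns lacked a sample. Read depth limits low genes.

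limma 3.58.1 was run on log2 (normalized count + 1) (R 4.3.3; lmFit, eBayes with trend, two-sided) over all 9 libraries of a table, for 10593 (siRNA) and 9963 (C16) genes with a mean of at least 10, with Benjamini-Hochberg adjustment over all genes tested and the study's thresholds of 0.05 and 1.5-fold. The 38 genes, the further lists and the tests were chosen with earlier results of these data known, and the lists were written from memory. Values in every library are given for HIF1A, EPAS1, SLC2A1, LDHA, PDK1, GAPDH and SLC16A1, and for the 5 called genes of largest change with a mean of at least 30 in each comparison with a control; from the further lists at most 3 called genes per comparison are named by the same mean and order. As alternatives each library was left out, the pseudocount was set to 0.5 or 5, the filter was dropped or raised to a mean of 30, values were rescaled by median of ratios or library total, the fit was limited to the compared groups or given the replicate number as a block, and recovered reads were tested with DESeq2 1.42.0 and the quasi-likelihood test of edgeR 4.0.16. On simulated counts with 200 genes changed 2-fold, limma recovered 182 of the 200 among 10593 genes in the siRNA design (3 false calls) and 163 of the 200 among 9963 genes in the C16 design (6 false calls). The simulation gave every gene the same fixed dispersion, not one estimated from these libraries, and changed fewer genes than were called here. Its figures therefore do not give the error rates in these data.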

Additional observations from a re-analysis of the deposited data

Results flagged for a closer look

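7 genes differed between the siRNAs with opposite signs against the shared control, each sign with an adjusted p under 0.05, and the direct contrast of PKR siRNA 2 against PKR siRNA 1 was called in limma for each, as for 7.79% of all tested genes. The log2 differences, siRNA 2 minus siRNA 1, were 1.77 for ADM, 1.72 for SLC16A3, -1.97 for HK2, -1.22 for SLC2A1, -1.21 for ENO2, -0.93 for LDHB and -0.77 for PGK1. Against control siRNA the values of siRNA 1 and siRNA 2 were -0.38 and 1.39 for ADM, -0.35 and 1.37 for SLC16A3, 1.15 and -0.82 for HK2, 0.87 and -0.35 for SLC2A1, 0.34 and -0.87 for ENO2, 0.27 and -0.66 for LDHB, and 0.39 and -0.39 for PGK1. Only HK2 was called against control with both siRNAs. The ENO2 libraries of siRNA 1 overlapped control. The summed epithelial markers also differed between the siRNAs (lowest to highest library 3052 to 3280 with siRNA 1 and 9586 to 10233 with siRNA 2). KRT8, KRT18, KRT19 and CDH1 were higher with siRNA 2 and KRT7 was lower, while EPCAM overlapped. KRT8 had medians of 1288.5 with siRNA 1 and 4941 with siRNA 2, and KRT19 of 764 and 3010. The part of these markers in the differences above was not tested. Groups of 3 libraries are too small for the check of outlying samples that was planned.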

How the results depend on the processing

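Called genes that kept their call under every alternative that tested them numbered 4 of 4 with PKR siRNA 1 and 10 of 13 with PKR siRNA 2. They numbered 10 of 13 between the siRNAs, 7 of 9 with 400 nM C16, 10 of 13 with 800 nM and 1 of 1 between doses. The exceptions are given in the report, and 0 called genes changed sign. The raised filter on low values did not test HK2 in the C16 table (mean 21.7) or NDRG1 in the siRNA table (mean 21.4). The HK2 calls with C16 and the NDRG1 call with siRNA 2 against control are counted as kept, although that alternative did not check them. Leaving out each library gave 3 to 4 genes up and 1 down with siRNA 1, 6 to 7 up and 6 down with siRNA 2, 3 to 4 up and 8 to 10 down between the siRNAs, 6 to 8 up and 2 to 3 down with 400 nM, 7 to 9 up and 4 to 5 down with 800 nM, and 0 up and 1 down between doses. Small, uncalled log2 fold changes changed sign with the library left out: HIF1A from -0.058 to 0.12 and -0.033 to 0.14 with siRNA 1 and 2, -0.020 to 0.16 with 400 nM and -0.0067 to 0.14 with 800 nM; LDHA from -0.056 to 0.040 with siRNA 1 and -0.0010 to 0.074 with 400 nM; PDK1 from -0.11 to 0.31 with siRNA 1; and EPAS1 from -0.044 to 0.18 and PFKM from -0.15 to 0.19 with 800 nM. The EPAS1 to HIF1A ratio at 800 nM ran from -0.052 (without the second 800 nM library; -0.037 without the first DMSO library) to 0.090. A ratio of SLC2A3 to SLC2A1 was planned and not computed, since SLC2A3 had at most 2 reads.

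Libraries of different groups share replicate numbers, but deviations of same-numbered libraries correlated between -0.03 and 0.03 in the siRNA table and between -0.05 and 0.02 in the C16 table. No shared variation by number was thus seen, which cannot show whether same-numbered libraries were prepared together. With the replicate number as a block the counts of called genes were the same in each comparison: 3 up and 1 down, 7 and 6, 4 and 9, 7 and 2, 8 and 5, and 0 and 1, in the order above.

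Over all genes, edgeR on recovered reads called 954 up and 1310 down with siRNA 1, 1240 and 1319 with siRNA 2, 700 and 619 with 400 nM and 1229 and 1425 with 800 nM. A minimum mean of 30, which tests fewer genes, lowered the genes called down from 543 to 296 with 400 nM, from 1403 to 800 with 800 nM and from 394 to 231 between doses. Between doses DESeq2 called 51 up and 138 down, and library-total scaling 163 and 335, against 113 and 394; the cause was not tested. Scaling moved the median of all genes by less than 0.1. Depth limits genes such as HK2 and PDK1, whose groups rest on few reads.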
